A study of Mus musculus with 28 samples.

Results

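Ccl22, Ccl17 and Ccr4 are a pair of CC chemokine ligands and the receptor they share, and they make up 3 of the 584 genes on the panel. They were picked by gene symbol, with their differences between tumor-bearing and healthy mice already known, so those differences are given as a description and carry no p-value. The transcripts were measured in microporous polycaprolactone scaffolds implanted subcutaneously in BALB/c females, where host cells fill the polymer and form a tissue called a synthetic niche. The tumor-bearing mice had been inoculated with 4T1-luc2-tdTomato, a 4T1 mammary carcinoma line that carries a luciferase and a red fluorescent reporter, and the healthy mice were tumor-free at the time of analysis. The labels list the tumor line for the healthy mice as well, so the condition at the time of analysis set the groups. Scaffolds were taken at day 7 (3 tumor-bearing, 3 healthy), day 14 (8 tumor-bearing, 8 healthy) and day 21 (3 tumor-bearing, 3 healthy) after inoculation, which makes 28 samples.

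CCL17 and CCL22 are small secreted proteins made mainly by dendritic cells and by macrophages activated with type 2 cytokines. Both bind CCR4, a G protein-coupled receptor on type 2 helper T cells, on many regulatory T cells and on T cells that home to skin, and they draw those cells toward the source. CCL22 is also known as a ligand through which some tumors and their macrophages attract regulatory T cells. Interleukin-4 signalling through STAT6, NF-kappaB and the growth factor GM-CSF are known inducers of one or both ligands.

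The genes of the ligands lie close together on mouse chromosome 8, with Cx3cl1, which encodes the membrane-bound chemokine fractalkine, as the only protein-coding gene between them in the RefSeq annotation. The 250 bases before each ligand's transcription start are shown because the transcript levels of the ligands varied together between mice, as described further on. Both are the plus strand of RefSeq build GRCm38.p6, at chr8:94745434-94745683 for Ccl22 and chr8:94810203-94810452 for Ccl17, and capitals mark the motif matches.
Ccl22: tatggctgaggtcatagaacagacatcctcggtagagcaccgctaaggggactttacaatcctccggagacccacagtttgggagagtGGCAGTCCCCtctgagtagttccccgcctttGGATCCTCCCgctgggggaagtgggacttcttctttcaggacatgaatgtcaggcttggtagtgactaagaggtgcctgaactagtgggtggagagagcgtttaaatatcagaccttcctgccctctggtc
Ccl17: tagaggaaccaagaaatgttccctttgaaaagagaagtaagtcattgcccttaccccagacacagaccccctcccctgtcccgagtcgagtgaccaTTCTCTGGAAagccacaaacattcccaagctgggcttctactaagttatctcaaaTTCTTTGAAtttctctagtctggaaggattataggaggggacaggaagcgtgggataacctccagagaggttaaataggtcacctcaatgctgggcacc
The motifs were searched on both strands from 250 bases before to 50 bases after the start, in 32851 promoters, and no matches overlapped in the ligand promoters. The Ccl17 promoter held TTC and GAA with any 4 bases between them, the spacing that STAT6 prefers, at bases -154 to -145, a motif found in 6.95% of all promoters. It also held TTC and GAA with any 3 bases between them, the spacing of other STAT factors, at bases -99 to -91, found in 8.30%. The Ccl22 promoter held neither and had GGG and CC with any 5 bases between them, a loose NF-kappaB motif, at bases -162 to -153 and -131 to -122, but 50.8% of all promoters hold that motif at least once. The Ccr4 promoter held none of these, and TATAAA, found in 13.6% of promoters, was in none of the 3. A match is a string of letters and not a measured binding site.

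Each gene was read by 1 TaqMan assay in every sample, as a quantification cycle (Cq), the PCR cycle at which the reaction crosses its threshold, so that a lower Cq means more template. Ccl22 (assay Mm00436439_m1, amplicon of 78 bp on NM_009137.2) gave a Cq in 27 of 28 samples, with a median of 23.1 and a range of 21.3 to 23.9. Ccl17 (Mm00516136_m1, 76 bp, NM_011332.3) gave one in 28 of 28, with a median of 25.97 and a range of 23.003 to 27.6. Ccr4 (Mm00438271_m1, 65 bp, NM_009916.2) also gave one in 28 of 28, with a median of 28.7 and a range of 26.1 to 29.8. The receptor was the latest of the 3 to appear, and 85.5% of assays had a lower median Cq than it, against 58.8% for Ccl22 and 74.0% for Ccl17. Assays differ in efficiency, so these cycles do not rank the amounts of the 3 transcripts.

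The 1 missing Ccl22 reaction belonged to day 21 tumor-bearing mouse 26. It was marked NA and not Undetermined in the raw table, as were all 82 assays without a Cq in that sample, and 17 of these gave a Cq in all the other 27 samples. Ccl22 at day 21 therefore rests on 2 tumor-bearing mice.

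All levels below are log2 of the authors' normalized ratio, which is the cycles by which a transcript appeared before (positive) or after (negative) the mean of 5 reference genes, and ± after a group mean is the SD. Across the panel, 12.4% of 18144 reactions gave no Cq, and a sample had between 475 and 587 of 648 assays with one. Of the 7 panels the samples were run on, called A to G here, D held 4 healthy and G held 4 tumor-bearing day 14 samples, and the other 5 held both conditions. Ptprc, the pan-leukocyte gene, gave a Cq in 27 of 28 samples, the T cell gene Cd28 and the monocyte gene Cd14 in 28, and the epithelial keratin gene Krt8 in 23. A group difference in bulk tissue cannot tell fewer cells of a type from less RNA per cell.

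Ccl22 was lower in tumor-bearing scaffolds at every day, most at day 21. At day 7 it stood at -4.66, -4.58 and -3.96 in tumor-bearing mice, against -4.23, -4.04 and -3.75 in healthy mice. The lower 2 of the tumor-bearing mice were below all healthy mice and the third was among them. At day 14 it ran from -5.40 through a median of -4.92 to -4.08 in tumor-bearing mice, against -4.68, -4.34 and -3.78 in healthy mice. The groups overlapped, with 5 of 8 tumor-bearing mice below all healthy mice and 7 of 8 below the healthy median. The day 21 values were -4.79 and -4.47 in tumor-bearing mice, against -3.60, -3.57 and -3.25 in healthy mice. These groups did not overlap.

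The fitted Ccl22 difference, tumor-bearing minus healthy, was -0.39 ± 0.27 (SE) at day 7, with a 95% interval of -0.95 to 0.16. At day 14 it was -0.53 ± 0.17, or 0.694-fold (95% interval 0.542 to 0.890). At day 21 it was -1.14 ± 0.30, or 0.454-fold (0.295 to 0.700), and over the mean of the 3 days -0.69 ± 0.15, or 0.622-fold (0.504 to 0.767). The change of the difference between day 14 and day 21 was -0.61 ± 0.35, with an interval of -1.33 to 0.11 that takes in 0. Between mice that shared both day and panel, Ccl22 was lower in the tumor-bearing mouse in 3 of 3 pairs at day 7, 3 of 4 at day 14 and 2 of 2 at day 21, and the exception was 0.23 on panel E at day 14. The raw cycles ran the same way at day 21, with a mean Cq of 23.3 in tumor-bearing and 21.7 in healthy mice, where the reference genes had a mean Cq of 18.6 and 18.2 in the same order.

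Ccl17 was lower in tumor-bearing scaffolds at day 21, with estimated differences near 0 at days 7 and 14. At day 7 it stood at -7.53, -7.43 and -6.01 in tumor-bearing mice, against -7.54, -6.87 and -6.83 in healthy mice. At day 14 it ran from -9.19 through a median of -7.62 to -5.83 in tumor-bearing mice, against -8.68, -7.48 and -6.52 in healthy mice. At both days the groups overlapped over most of their range, and the mouse with the highest value was a tumor-bearing one. The day 21 values were -7.31, -7.10 and -6.36 in tumor-bearing mice, against -6.34, -5.90 and -4.91 in healthy mice. These groups did not overlap, but the highest tumor-bearing and the lowest healthy mouse were side by side.

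The Ccl17 difference, tumor-bearing minus healthy, was 0.09 ± 0.59 (SE) at day 7 and 0.00 ± 0.38 at day 14. At day 21 it was -1.20 ± 0.59, or 0.434-fold, with a 95% interval from 0.186-fold to 1.01-fold. Of 573 assays tested at day 21, 46 (8.03%) had all tumor-bearing mice below all healthy mice, Ccl22 and Ccl17 among them, and nothing is read from this count because the choice of genes had this contrast in view. At day 7 this held for 24 of 565 assays (4.25%) and none of the 3 genes, and at day 14 for 0 of 588.

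Between mice that shared a panel, the Ccl17 difference had opposite signs at days 14 and 21, which was not tested in these pairs. At day 14 the tumor-bearing mouse had more Ccl17 in 4 of 4 pairs, by 0.34 to 1.23 with a mean of 0.68. At day 21 it had less in 3 of 3 pairs, by a mean of -1.20 and a range of -1.45 to -0.75. At day 7 the 3 pairs stood at -0.56, 0.01 and 0.82. The day 14 fit is close to 0 and also holds panels D and G, which have 1 condition each. Without them it was 0.68 ± 0.49, and on them Ccl17 ran from -9.19 to -7.62 in the 4 tumor-bearing mice of panel G, against -7.80 to -6.67 in the 4 healthy mice of panel D. For those 8 mice, panel and condition cannot be told apart.

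Ccr4, the receptor, had a lower mean in tumor-bearing scaffolds at each day, but at days 7 and 21 single mice set that difference. It varied widely between mice at day 21, where its SD was 1.801 in tumor-bearing and 1.27 in healthy mice. At day 7 it stood at -9.93, -9.75 and -9.75 in tumor-bearing mice, against -11.2, -8.91 and -8.14 in healthy mice. At day 14 it ran from -11.2 through a median of -10.5 to -9.76 in tumor-bearing mice, against -10.4, -9.73 and -8.84 in healthy mice. All 8 tumor-bearing mice lay below the healthy median and 4 lay below every healthy mouse. The day 21 values were -11.3, -10.7 and -7.91 in tumor-bearing mice, against -10.4, -8.38 and -7.996 in healthy mice. The highest of the 6 was tumor-bearing mouse 26, the one with the missing Ccl22 reaction.

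The Ccr4 difference, tumor-bearing minus healthy, was -0.38 ± 0.73 (SE) at day 7, -0.84 ± 0.47 at day 14 and -1.05 ± 0.73 at day 21. Each 95% interval took in 0, and so did that of the mean over the 3 days, -0.76 ± 0.38 (-1.53 to 0.02, or 0.592-fold). The day 7 value was 0.30 without healthy mouse 3 and -1.28 without healthy mouse 1. The day 21 value was -2.08 without mouse 26 and -0.41 without mouse 27, so single mice set its size. Ccr4 was lower in the tumor-bearing mouse in 7 of 10 panel pairs. The fold changes of tumor-bearing over healthy in the authors' deposited table were 0.761, 0.687 and 0.450 for Ccl22 at days 7, 14 and 21, then 1.07, 0.948 and 0.434 for Ccl17, and 0.769, 0.564 and 0.481 for Ccr4. They equal the ratios of the group geometric means.

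**Figure D1:**
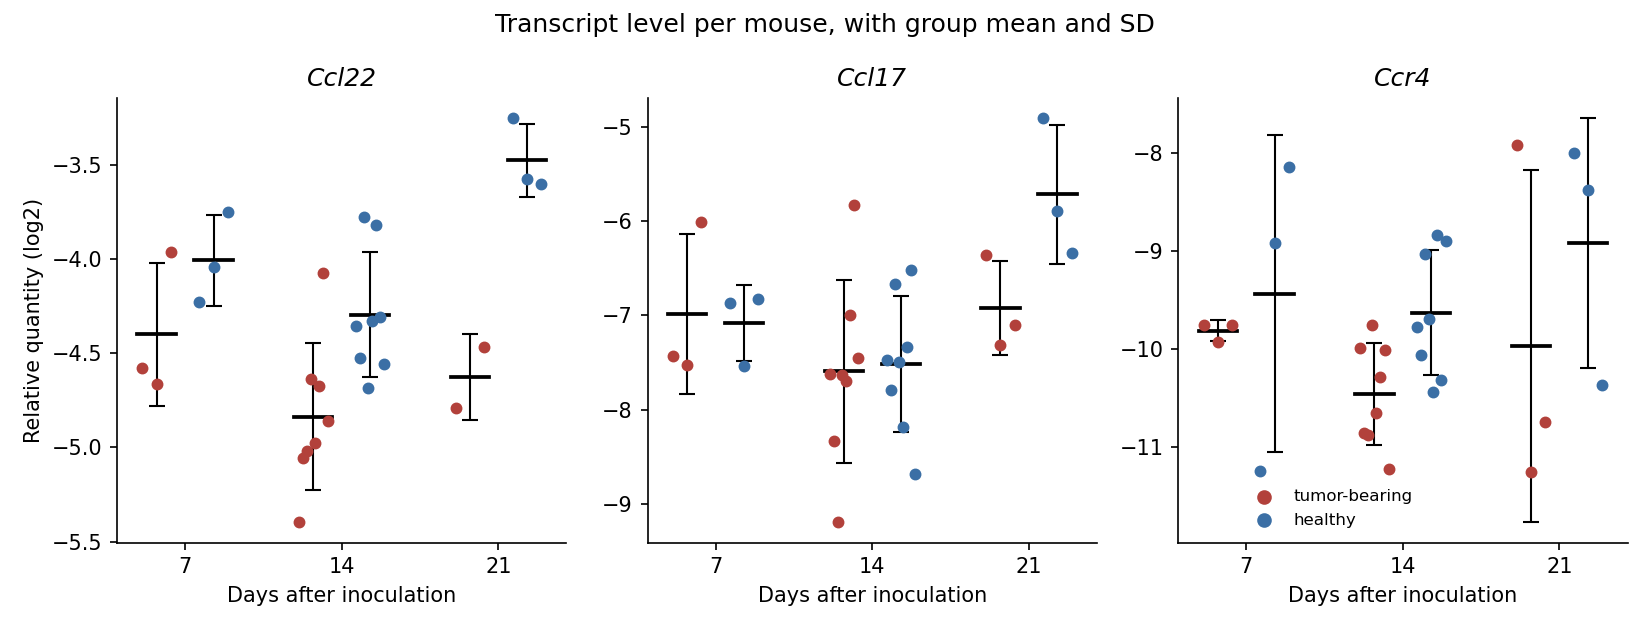
Log2 relative quantity of Ccl22, Ccl17 and Ccr4 in each mouse (points) at days 7, 14 and 21, tumor-bearing mice in red and healthy mice in blue, with the group mean (bar) and SD. At day 21 the ligands of the 3 healthy mice lie above those of all tumor-bearing mice with a value (2 for Ccl22, 3 for Ccl17), while Ccr4 overlaps.

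**Figure D2:**
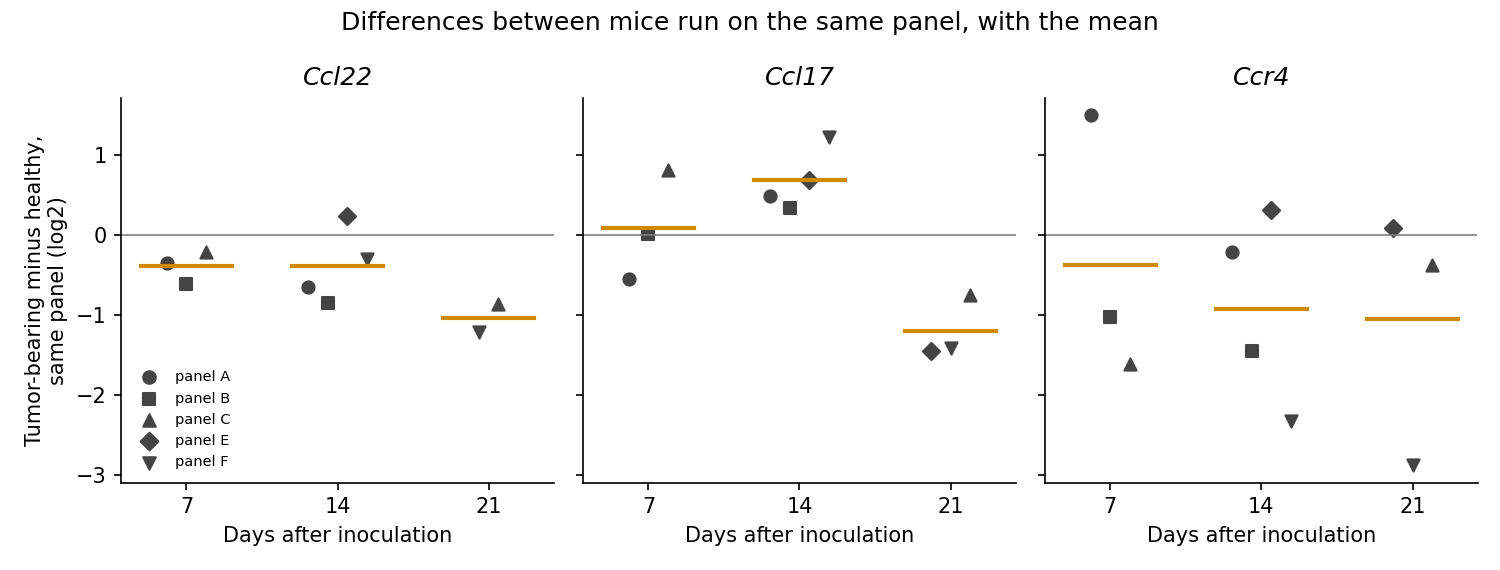
Tumor-bearing minus healthy log2 difference for each pair of mice that shared day and panel (symbols), with the mean of the pairs (orange bar). The Ccl22 pairs lie below 0 except 1 at day 14, and the Ccl17 pairs lie above 0 at day 14 and below 0 at day 21.

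The mean level of each gene was highest in healthy mice at day 21 and lowest in tumor-bearing mice at day 14. For Ccl22 the group means ran from -3.48 ± 0.19 in healthy day 21 mice (n = 3) down through healthy day 7, healthy day 14, tumor-bearing day 7 and tumor-bearing day 21 mice to -4.84 ± 0.39 in tumor-bearing day 14 mice (n = 8). Only the first step, to healthy day 7, was larger than the SD within the groups. For Ccl17 they ran from -5.72 ± 0.73 in healthy day 21 mice (n = 3) to -7.59 ± 0.97 in tumor-bearing day 14 mice (n = 8), and only the step from healthy to tumor-bearing day 21 mice was larger than the SD. For Ccr4 they ran from -8.92 ± 1.27 to -10.46 ± 0.52 over the same end groups, and no neighbours in the order differed by more than their SD.

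Between day 14 and day 21 the ligand differences did not pass the threshold in either condition. The estimates were smaller in tumor-bearing than in healthy mice, and the change of the difference between conditions was -0.61 ± 0.35 for Ccl22, as above, and -1.21 ± 0.70 for Ccl17 (95% interval -2.65 to 0.24). In tumor-bearing mice the day 21 minus day 14 difference was 0.19 ± 0.27 (SE) for Ccl22 (limma adjusted p = 0.854) and 0.57 ± 0.50 for Ccl17 (limma adjusted p = 0.709). These were larger than the differences of 60.5% of assays for Ccl22 and 83.0% for Ccl17. The day 21 values lay inside the day 14 range for both, whereas 21 of 583 assays (3.6%) had all day 21 mice above all day 14 mice. Within panels, Ccl22 differed by 0.07 on panel F, and Ccl17 by -0.53 on panel E and 0.14 on panel F. With the panel as a fixed term the fitted differences turned to -0.0296 for Ccl22 and -0.22 for Ccl17. No assay passed the threshold between these days in tumor-bearing mice in limma, while 60 of 583 had an unadjusted p under 0.05.

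In healthy mice the 3 day 21 values of Ccl22 and of Ccl17 lay above all 8 day 14 values. Of 578 assays tested, 23 (3.98%) had all healthy day 21 mice above all healthy day 14 mice. The day 21 values of both ligands also lay above all 3 day 7 values. How many of all assays did so was not counted, so nothing is read from it. The day 21 minus day 14 difference in healthy mice was 0.80 ± 0.23 (SE) for Ccl22, or 1.74-fold, at a limma adjusted p = 0.095. It was 1.77 ± 0.50 for Ccl17, or 3.42-fold (95% interval 1.67 to 7.02), at the same adjusted p = 0.095. Neither passed the threshold of 0.05, which 0.346% of assays did, and 93 assays had an unadjusted p under 0.05.

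The Ccl17 difference in healthy mice was larger than that of 98.6% of the assays tested, and the Ccl22 difference was larger than that of 90.5%. Within panels E and F, the only ones with healthy mice of both days, Ccl22 was higher at day 21 by 1.06 and 0.98, and Ccl17 by 1.61 and 2.78. Leaving out healthy mouse 12 gave Ccl22 a difference of 0.87 (limma adjusted p = 0.0462), and leaving out healthy mouse 13 gave Ccl17 a difference of 1.93 (limma adjusted p = 0.043). These were the only passes, 1 of 40 alternatives for Ccl22 and 1 of 41 for Ccl17, and over all of them the limma adjusted p ran up to 0.931 for Ccl22 and 0.328 for Ccl17. The healthy day 21 mice also enter the tumor-bearing minus healthy difference of that day, so the high ligand levels there and the difference at day 21 are not separate observations. Because the genes were chosen with that difference in view, the adjusted p-values and passes given for healthy day 21 minus day 14 are a description. They are not an independent test.

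Ccr4 differed between day 21 and day 14 by 0.48 ± 0.62 (SE) in tumor-bearing mice (limma adjusted p = 0.85), or -0.55 without mouse 26, and by 0.70 ± 0.62 in healthy mice (limma adjusted p = 0.606). From day 7 to day 14 all 3 genes had negative differences in both conditions, -0.41, -0.56 and -0.69 for Ccl22, Ccl17 and Ccr4 in tumor-bearing mice and -0.28, -0.47 and -0.24 in healthy mice. None of these passed the threshold, with limma adjusted p-values of 0.639 to 0.932. In tumor-bearing mice the Ccl17 value was -0.08 without mouse 6 and -0.02 without panels D and G, and the Ccl22 value was -0.20 without mouse 6. In healthy mice the Ccl22 value was -0.01 with missing reactions at the largest Cq, and the Ccr4 value was 0.43 without mouse 3. From day 7 to day 21, Ccl22 and Ccl17 differed by -0.22 and 0.01 in tumor-bearing mice and by 0.52 and 1.30 in healthy mice, where the limma adjusted p was 0.536 and 0.432.

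The balance of the ligands can be read inside a sample without any reference gene, as the cycles by which Ccl22 appeared before Ccl17. At day 7 this gap was 2.59 ± 0.47 in tumor-bearing and 3.08 ± 0.43 in healthy mice (SD, n = 3 each), and at day 14 it was 2.76 ± 0.74 and 3.22 ± 0.61 (n = 8 each). At day 21 it was 2.58 ± 0.08 in tumor-bearing mice (n = 2) and 2.24 ± 0.55 in healthy mice (n = 3). The gap was narrower in tumor-bearing mice at the first 2 times and wider at the last, by -0.49, -0.47 and 0.33 cycles. Each of these is smaller than or close to the SD within the groups (0.45, 0.68 and 0.45), and the change of sign was not tested. With 1 mouse left out the day 7 value ran from -0.70 to -0.22, and the day 21 value was 0.04 without healthy mouse 23 and 0.58 without healthy mouse 25. Without panels D and G the day 14 value was -1.08.

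Mice with more Ccl22 than their group mean tended to have more Ccl17 as well. After the mean of each group was removed, Pearson's r was 0.68 and Spearman's rho was 0.67 over 27 mice. A permutation test within groups gave p = 0.00154 for r, or 0.00462 adjusted over the 3 pairs of genes, and an adjusted 0.00309 for rho. With panel means removed too, r was 0.52 (adjusted permutation p = 0.0295). Without mice 21 and 9, the 2 farthest from the median of Ccl22, r was 0.50 (permutation p = 0.0294, adjusted p = 0.0882), whereas rho was 0.56 (adjusted permutation p = 0.0295). Without mouse 21 alone r was 0.56 (adjusted permutation p = 0.0328), and without mouse 9 alone it was 0.65 (adjusted permutation p = 0.0116). Mouse 21, a tumor-bearing day 14 mouse on panel E, had the highest value of both ligands in its group. The relation had r = 0.77 in the 13 tumor-bearing and r = 0.55 in the 14 healthy mice.

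Ccr4 followed the ligands less closely. With Ccl22 it had r = 0.41 over 27 mice (permutation p = 0.0204, adjusted p = 0.0306) and rho = 0.41 (adjusted permutation p = 0.0667). Without mice 21 and 9 that r was 0.37 (adjusted permutation p = 0.103). With Ccl17 it had r = 0.28 and rho = 0.32 over 28 mice (adjusted permutation p = 0.0888 and 0.108), and r = 0.26 without mice 21 and 17 (adjusted permutation p = 0.2). These mice share panels and reference genes, so r was also taken with panel means removed, above, and with the sample's median Cq in place of the reference genes. With that centring r was 0.68 for Ccl22 and Ccl17 (adjusted permutation p = 0.0075) and 0.34 for Ccl22 and Ccr4 (adjusted permutation p = 0.0912).

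**Figure D3:**
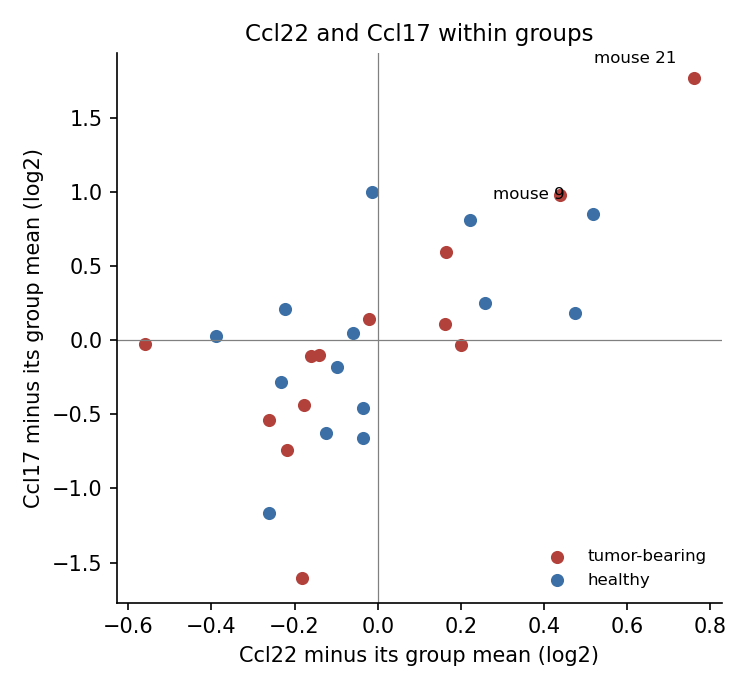
Ccl17 against Ccl22 in each of 27 mice, both as the log2 difference from the mean of the mouse's group, tumor-bearing mice in red and healthy mice in blue. The points rise from lower left to upper right (r = 0.68), and mice 21 and 9 are the 2 whose removal lowers r to 0.50.

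Cx3cl1, the gene between the ligands, differed by -0.09 ± 0.32 (SE) between tumor-bearing and healthy mice at day 21 (limma adjusted p = 0.995) and by -0.15 ± 0.27 between day 21 and day 14 in healthy mice (limma adjusted p = 0.832). Its 95% intervals were -0.76 to 0.57 and -0.71 to 0.42, against estimates of -1.14 and 0.80 for Ccl22 and -1.20 and 1.77 for Ccl17. The differences between the genes were not tested.

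Each gene was set against the other assays with a Cq in every sample, 312 for Ccl22. Within groups, the 6 of these with the highest r with Ccl22 over 27 mice were Ccl17 (0.68), Ccl8 (0.64), Tnfsf13b (0.57), Prdx5 (0.56), Ptges (0.56) and Tnf (0.55). Ccl8 encodes another CC chemokine, Tnfsf13b the B cell survival factor BAFF, Ptges a prostaglandin E synthase and Tnf tumor necrosis factor. For Ccl17 they were Prdx5, a peroxiredoxin (0.68), the neutrophil genes S100a9 (0.57) and S100a8 (0.45), Saa3 (0.53), C1rl (0.46) and Timm50 (0.44), over 28 mice and 311 assays. For Ccr4 they were Bre (0.59), Nono (0.57), Cxcr3, a receptor of type 1 T cells (0.56), the integrin gene Itgb2 (0.53), Vegfc (0.50) and Axl (0.48). The median over all assays compared was -0.04 for Ccl22, -0.06 for Ccl17 and 0.04 for Ccr4. With panel means removed, Timm50 had r = 0.00 with Ccl17 and Prdx5 had 0.26 with Ccl22.

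Most CC chemokine ligands had positive differences between day 21 and day 14. Of 18 assays for 16 ligands, Ccl22 and Ccl17 included, 14 were positive in tumor-bearing mice, with a median of 0.16 against 0.07 over all 583 assays. In healthy mice 17 of 18 were positive, with a median of 0.62 against -0.02 over all 578 assays, and the exception was Ccl28 (-1.08 ± 0.68). None passed the threshold in limma, and 8 had an unadjusted p under 0.05. Ccl20, a ligand for CCR6, stood at 2.11 ± 0.66 (limma adjusted p = 0.104) and Ccl19, a ligand for CCR7, at 1.98 ± 0.81 (limma adjusted p = 0.205), and only these exceeded Ccl17.

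**Figure D4:**
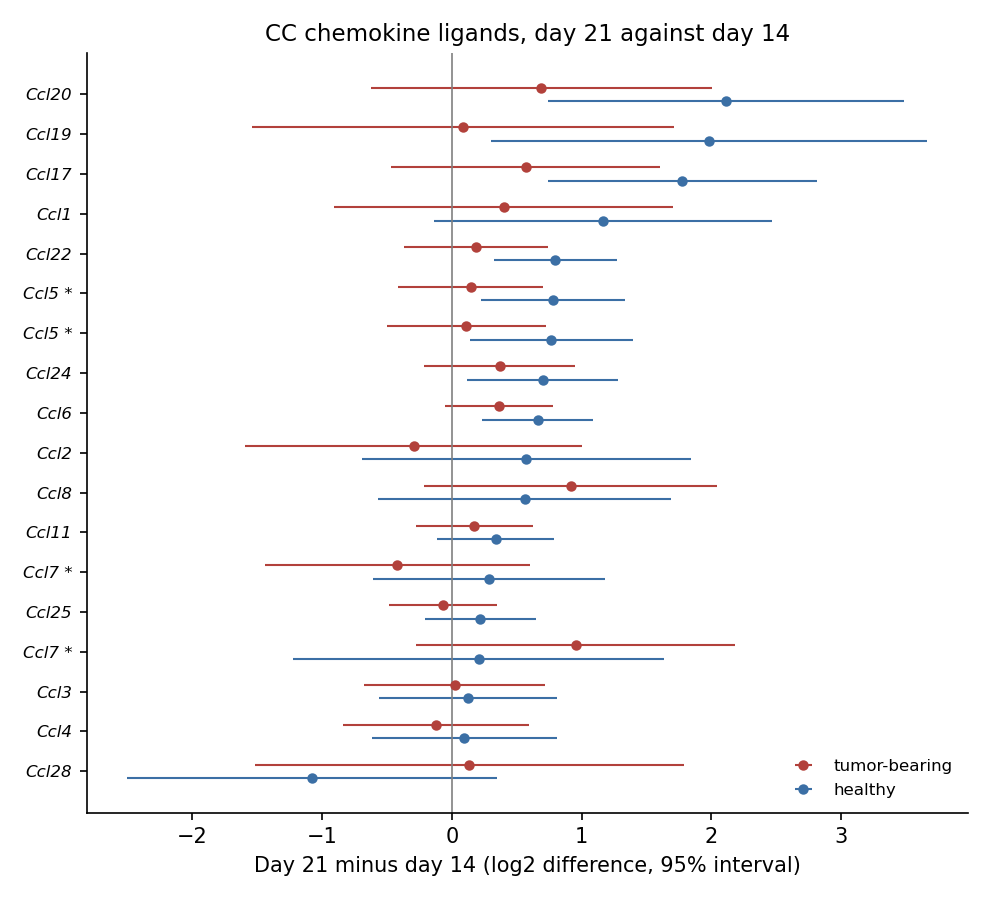
Day 21 minus day 14 log2 difference with its 95% interval for the 18 assays of CC chemokine ligands, in tumor-bearing mice (red) and healthy mice (blue), sorted by the healthy value. An asterisk marks genes with 2 assays. In healthy mice all but Ccl28 lie right of 0, and Ccl17 is the third from the top.

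Between conditions at day 21, 15 of the 18 CC ligand assays were negative, with a median of -0.34 where that over all 573 lay close to 0, and none passed the threshold, which 1.22% of all assays did, 0.175% as lower and 1.05% as higher. Averaged over the 3 days, the chemokine Ccl5, which attracts T cells and monocytes, fell (-0.71 ± 0.16, limma adjusted p = 0.0135). Its second assay stood at -0.55 ± 0.18 (limma adjusted p = 0.181). For the mean of the 3 days 2.5% of assays passed, 0.716% as lower and 1.79% as higher. Leaving out healthy mouse 2 took the first Ccl5 assay to -0.66 (limma adjusted p = 0.0525).

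Of 23 assays for 20 chemokine receptors, Ccr4 included, 1 passed the threshold at day 21 in limma, Ccr7, and it fell in tumor-bearing mice. The next by p, Cxcr4, the receptor of CXCL12, stood at 5.74 ± 1.54 and did not pass (limma adjusted p = 0.073). CCR7 guides mature dendritic cells and naive T cells into lymph nodes. Its levels were -5.35 to -4.93 in tumor-bearing mice, against -4.30 to -3.69 in healthy mice, with a difference of -1.18 ± 0.29 (SE, limma adjusted p = 0.0427). Ccr7 also fell over the mean of the 3 days, by 0.81 ± 0.15 on the log2 scale (limma adjusted p = 0.00238). In healthy mice it was 0.81 ± 0.25 higher at day 21 than at day 14 (limma adjusted p = 0.101), beside the 0.80 of Ccl22. The day 21 call was lost in 23 of 41 alternative settings, at adjusted p-values up to 0.275 without healthy mouse 23, and the call for the mean of the 3 days was lost in none.

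Of 9 measured genes that T cells with CCR4 can express, none passed the threshold between conditions. They were Cd4, Cd28, Ctla4, Foxp3, Icos, Il10, Tgfb1, Tnfrsf4 and Tnfrsf18, and several of them, Il10 and Tgfb1 included, are made by many other cells. No assay of any list but the neutrophil one passed at day 14, where 2.38% of all assays did. All 9 were negative at that time, with a median of -0.48 against -0.08 over all assays, where Ccr4 itself stood at -0.84. Foxp3, the lineage factor of regulatory T cells, stood at -1.07 ± 0.40 (limma adjusted p = 0.24) and Icos, a costimulatory receptor, at -0.86 ± 0.35 (limma adjusted p = 0.306). At day 21, 8 of 9 were negative with a median of -0.73, and Tnfrsf18, the gene of GITR, stood at -1.28 ± 0.47 (limma adjusted p = 0.3). Within groups, Ccr4 had a positive r with all 9, the highest with Ctla4 (0.50) and the median 0.15, whereas Ccl22 did with 4 and Ccl17 with 5. This was not particular to the T cell genes. Ccr4 also had a positive r with 8 of 10 assays for dendritic cell and activated macrophage genes, with a higher median of 0.25. For the type 2 list below it was positive with 7 of 12, with a median of 0.13.

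No tested gene on the list of type 2 inducers of the ligands and their signalling passed the threshold in any comparison. Genes of NF-kappaB signalling were not on that list. Il4 gave a Cq in 5 of 28 mice and could not be tested, and Il13 could be tested between conditions at day 14 alone. Of the type 2 list (14 genes on the panel, among them Il4ra, Il13, Stat6, Il33, Tslp and Csf2), 13 assays were tested between conditions at day 21, with a median of 0.01. Stat6, which carries the interleukin-4 signal to the nucleus, stood at -0.23 ± 0.19 (limma adjusted p = 0.856). Csf2, which encodes GM-CSF, differed between day 21 and day 14 by 1.07 ± 0.45 in tumor-bearing mice (limma adjusted p = 0.352) and by 1.71 ± 0.45 in healthy mice (limma adjusted p = 0.0682). Its second assay gave 0.95 ± 0.80 in healthy mice (limma adjusted p = 0.589).

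Genes listed for the cells that make the ligands moved in both directions. Of 10 assays for dendritic cell and activated macrophage genes at day 21, Ccr7 fell and Chi3l3 (now Chil3) rose. The Chi3l3 difference was 3.17 ± 0.69 (limma adjusted p = 0.0135), opposite in sign to that of Ccl22. Within groups, however, Chi3l3 had a positive r with Ccl22 (0.43) and with Ccl17 (0.36), which was not tested. Chi3l3 is known as a chitinase-like gene of alternatively activated macrophages, but which cells carried it here was not measured. Neutrophil transcripts also rose in tumor-bearing mice, as given below, and their part in the Chi3l3 rise was not tested. Without healthy mouse 23 Chi3l3 stood at 2.83 (limma adjusted p = 0.165), and it also missed the threshold without healthy mouse 25 or tumor-bearing mouse 28. Mrc1, Cd40, Cd80, Cd86, Cd74, Il12b and Xcr1 did not pass. Of the receptors that bind the ligands without signalling, Ccbp2 (now Ackr2) stood at -0.56 ± 0.22 at day 14 and 0.67 ± 0.34 at day 21, and Darc (now Ackr1) at -0.52 ± 0.25 and -0.09 ± 0.38, none past the threshold. On the type 1 side, 12 of 12 assays for 8 genes (Ifng, Cxcl9, Cxcl10, Cxcl11, Ccl5, Il12a, Il12b, Tnf) were negative at day 21. Their median was -1.02, against -0.001 over all assays, and none passed the threshold.

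Neutrophil transcripts rose in tumor-bearing mice. All 9 assays for 8 neutrophil genes rose at day 14, by 1.39 to 4.81, where 1.7% of all assays did, and 4 of 9 rose at day 21. Their summed relative quantity at day 21 was 8.04 to 14.8 in tumor-bearing mice, against 3.00 to 4.79 in healthy mice, and at day 14 it was 1.21 to 9.92 against 0.432 to 2.17. This sum takes in both assays of S100a8 and weighs the most abundant assays most. At day 21 in tumor-bearing mice the S100a8 assays had mean log2 levels of 1.51 and 2.25 and S100a9 of 1.64, against -2.50 for Camp. In healthy mice 8 of the 9 neutrophil assays also had a positive day 21 minus day 14 difference, with a median of 1.19 and none past the threshold. No marker was undetected in either condition, and the least detected, Prtn3, gave a Cq in 13 tumor-bearing and 7 healthy mice. Ptprc differed by -0.05 ± 0.22 (SE) at day 21 (limma adjusted p = 0.995). The myeloid genes Cd14 and Itgam, listed as macrophage markers, had differences of opposite sign, -0.14 and 0.16 from lower to higher, neither past the threshold. The part of neutrophil content in the ligand differences between conditions and over time was not tested.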

How the data were processed

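Per the labels' protocols, RNA from frozen scaffolds was isolated with DNase treatment, reverse transcribed and measured by real-time PCR on an OpenArray inflammation panel. The cycle-calling software was not given in the sources used here. According to the table columns and per the file headers, the authors deposited raw Cq scores (on a cycle scale) and normalized ratios on a linear scale, and a further deposited table gives fold changes without errors. The header names no reference gene. From the values, each sample's offset equals the mean Cq of 5 reference genes to within 2.96e-05 cycles, and their names are not reported here.

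Values were the log2 of the deposited ratios. Missing reactions stayed missing. The 609 assays detected in 50% or more of some group's samples were kept, and a contrast needed 2 or more values in each of its groups. limma 3.58.1 in R 4.3.3 fitted 1 mean per group over all 28 samples, with panel as a random block (statmod 1.5.0, correlation 0.054). P-values were adjusted by Benjamini-Hochberg over all assays of a contrast, with a threshold of 0.05, and the number of mice limits the precision. Nothing in the labels describes how the mice were housed or allotted, so p-values measure the spread between these samples. The fit was checked on simulated data. Correlations used 100000 permutations within groups, two-sided (Python 3.11.15, numpy 2.4.6, pandas 2.3.3, scipy 1.17.1).

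The genes and lists were chosen with earlier results of these data known. Named are the 3 genes, list members past the threshold or the 2 with the smallest p, and all assays of Ccr7, Ccl5 and Cx3cl1. The 6 assays most like each gene by r, among assays with a Cq in every sample, are named too. Csf2, Stat6, Ccl19, Ccl20, Ccl28, Foxp3, Icos, Tnfrsf18, Ptprc, Cd14, Itgam, Krt8 and Prtn3 were named as well, some by that rule and some after their values were seen. Alternatives were other treatments of panel, normalization, missing reactions, detection filter and prior, and leaving out each mouse.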

Additional observations from a re-analysis of the deposited data

Results flagged for a closer look

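Ccl17 moved in opposite directions at the later times between mice that shared a panel. In all 4 pairs of day 14 it was higher in the tumor-bearing mouse, by a mean of 0.68 on the log2 scale, and in all 3 pairs of day 21 it was lower, by a mean of -1.20. The difference between the days was not tested in these pairs, and in the fit over all mice it was -1.21 ± 0.70 (SE) with a 95% interval of -2.65 to 0.24. Panels D and G of day 14 hold a single condition each and give no pairs. On them Ccl17 ran from -9.19 to -7.62 in tumor-bearing mice, against -7.80 to -6.67 in healthy mice. The day 14 fit over all mice was 0.00 ± 0.38 (SE).

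No mouse stood apart from its group at Dixon's 95% critical value in the 8 groups of values with 4 to 10 mice that were examined. The day 7 and day 21 groups, of 3 mice each, were too small to be examined.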

How the results depend on the processing

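The tumor-bearing minus healthy difference of Ccl22 kept its sign at every day in every setting, -0.40 to -0.33 at day 7 and -0.54 to -0.39 at day 14. With a mouse left out it ran from -0.61 (without mouse 6) to -0.25 (without mouse 5) at day 7 and from -0.64 to -0.46 at day 14. With every missing reaction given the largest Cq it was -6.70 at day 21 and -2.53 for the mean of the 3 days, because the 1 missing reaction of mouse 26 was then given a value. The other day 21 settings gave -1.15 to -1.02. In tumor-bearing mice the day 21 minus day 14 difference turned to -0.0296 for Ccl22 and -0.22 for Ccl17 with panel as a fixed block, and to -5.48 for Ccl22 with missing reactions at the largest Cq. The Ccl17 difference between day 21 and day 7 in tumor-bearing mice, 0.01, has no settled sign: it was -0.40 with panel fixed, -0.13 with median-centred raw Cq, -0.0547 with missing reactions and -0.0269 with Undetermined ones at the largest Cq, -0.01 with assays measured in every sample only and -0.0061 with 11 reference assays. The settings for Undetermined reactions and 11 reference assays, and the ligand gap with each mouse left out, were chosen after seeing the data. The cause was not tested, apart from the missing reaction.

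Leaving out 1 mouse at a time moved Ccl22 to 0.69 to 0.87 and Ccl17 to 1.44 to 2.08 for day 21 minus day 14 in healthy mice. It moved Ccl17 to -0.27 to 0.52 for day 21 minus day 7 in tumor-bearing mice. It moved Ccr4 to -2.08 to -0.41 between conditions at day 21, and within tumor-bearing mice to -0.55 to 1.13 (day 21 minus 14) and -1.22 to 0.41 (day 21 minus 7). In healthy mice Ccr4 went to -1.15 to 0.43 (day 14 minus 7) and -0.43 to 1.22 (day 21 minus 7).

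Of the 76 pathway list assays other than the 3 genes tested at day 14, 0 passed, where 2.38% of all assays did. The count was 1 without panels D and G, 1 with median centring, and 0 to 1 with a mouse left out. Of 75 such assays tested at day 21, 2 passed (Ccr7, Chi3l3), where 1.22% of all assays did. The count was 1 with no panel block, with panel fixed, with assays measured in every sample and with a trended prior. It was also 1 with Undetermined set to the largest Cq and with only the day 21 groups. With missing reactions at the largest Cq it was 0, and with a mouse left out 0 to 3. The correlation of Ccl22 and Ccl17 was 0.50 without 2 mice, that of Ccl22 and Ccr4 was 0.37 without 2 mice and 0.34 with median centring, and that of Ccl17 and Ccr4 was 0.42 with no group mean removed. With a mouse left out they were 0.56 to 0.74, 0.36 to 0.51 and 0.22 to 0.37. Mice could not be paired by replicate number because these numbers run from 1 to 28 and none is shared between groups. That concerns replicate numbers only: pairs of mice by panel are in the report, and panel was used as a block.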
